A study of Mus musculus with 12 samples.

Results

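The genes described here are the SLAM family of leukocyte receptors and their adaptor: Slamf1, Slamf6, Slamf7, Cd48, Cd84, Cd244a, Ly9 and Sh2d1a. They were chosen by name, as 8 of the 32285 genes counted in each cell, together with the 3 antibodies against SLAM proteins (Ly108, CD150 and CD48) among the 102 antibodies measured on the same cells. The cells came from B16-F10 melanomas, grown in the skin of 6 Rag1-deficient mice (strain B6.129S7-Rag1tm1Mom/J), which lack mature lymphocytes of both the T and the B lineage. Every mouse had been given Pmel CD8+ T cells, marked by Thy1.1, whose transgenic receptor recognises a melanocyte antigen. In 3 mice (control) these T cells had been kept with vehicle in culture, and in 3 mice (CAL-101) with CAL-101, also called idelalisib, which blocks the delta form of PI3 kinase. The host NK cells and myeloid cells, sorted with the T cells as live CD45.2+ cells from part of each tumour, were never cultured with the drug. By design, the transferred T cells thus share a transgenic receptor, and the host is not expected to add mature lymphocytes of the T or B lineage. Receptor sequences were not examined. Some cells bear the authors' label CD4+ T cells and are pooled here with the other cells labelled as T cells.

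SLAM receptors are immunoglobulin superfamily proteins of blood cells, and most of them bind a second copy of themselves on a neighbouring cell. CD48 and 2B4, the protein of Cd244a, are the exceptions in this list: CD48, which lacks a cytoplasmic tail, is the ligand of 2B4 and of CD2. The tails of most of the other receptors carry tyrosine motifs that bind SAP, the small adaptor encoded by Sh2d1a, which brings in the kinase Fyn; phosphatases bind the same motifs when SAP is absent. The tail of Slamf7 works with the related adaptor EAT-2 instead. In CD8+ T cells under lasting antigen stimulation, Ly108, the protein of Slamf6, is used with the transcription factor TCF-1 (gene Tcf7) to mark progenitor exhausted cells, whereas TIM-3 (gene Havcr2) marks terminally exhausted cells and 2B4 is often listed with the inhibitory receptors.

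The 3 SLAM antibodies were read through the short DNA barcodes that they carry, which are the sequences counted as antibody tags below. Each barcode is given from its 5′ end as the deposited feature tables list it.
Ly108 (protein of Slamf6): cgattctttgcgagt
CD150 (protein of Slamf1): caacgcctagaaacc
CD48 (protein of Cd48): agaaccgccgtagtt
The 7 receptor genes lie close together on chromosome 1 in 390.2 kb (chr1:171558718-171948958, RefSeq annotation of GRCm38.p6), in the order Cd244a, Ly9, Slamf7, Cd48, Slamf1, Cd84 and Slamf6, and Sh2d1a lies on the X chromosome (chrX:42502565-42522097). Cd48 (ENSMUSG00000015355) spans chr1:171681245-171705258 and Slamf6 (ENSMUSG00000015314) spans chr1:171917458-171948958. These are the 2 members whose RNA was called higher in CAL-101 T cells, and their promoters are therefore shown, from 250 bases before the RefSeq start to 50 bases after it, both on the plus strand; the start used for Cd48 lies inside the span given above.
Slamf6 promoter, chr1:171917212-171917511: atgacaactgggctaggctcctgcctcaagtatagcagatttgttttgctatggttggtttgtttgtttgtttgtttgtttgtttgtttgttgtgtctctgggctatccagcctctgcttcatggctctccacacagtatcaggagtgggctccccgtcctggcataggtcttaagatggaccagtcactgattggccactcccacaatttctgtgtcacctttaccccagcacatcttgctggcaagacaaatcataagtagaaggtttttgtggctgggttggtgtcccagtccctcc
Cd48 promoter, chr1:171681742-171682041: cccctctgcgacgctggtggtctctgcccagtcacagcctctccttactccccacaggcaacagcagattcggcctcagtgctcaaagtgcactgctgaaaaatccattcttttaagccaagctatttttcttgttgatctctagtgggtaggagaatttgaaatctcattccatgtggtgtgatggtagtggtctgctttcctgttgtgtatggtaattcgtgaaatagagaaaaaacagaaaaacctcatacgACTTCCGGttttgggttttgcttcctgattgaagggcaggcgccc
Capitals mark matches, on either strand, to 4 motifs that were searched: CTTTGAA (TCF and LEF factors), CCGGAAGT (ETS factors), TGTGGTT (RUNX factors) and TGACTCA (AP-1). The Cd48 window holds 1 ETS match and the Slamf6 window holds none of the 4. Among all 32851 mouse promoter windows of this length, 5.14% held the TCF motif, 3.89% the ETS motif, 5.27% the RUNX motif and 5.20% the AP-1 motif. A match or its absence describes these letters only.

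Each mouse gave 6152 to 9147 cells and 75716841 to 97933109 RNA UMIs (unique molecules), 45477 cells in all, which the authors had assigned to 14 clusters and 10 cell type labels. T cells here are the 28518 T-labelled cells of clusters 1 to 5, of 32861 with a T label, and NK cells are the 11036 NK-labelled cells of clusters 0, 7, 8, 9 and 13. T labels were also given to 80.4% of cluster 6, whose median cell held 865.5 UMIs, and to 14.5% of cluster 0, and these cells were left out of both classes. Levels are given as CPM, the UMIs of a gene scaled to the same total in each mouse and class, so that cell numbers do not enter, but fewer cells with the RNA and less RNA per cell cannot be told apart in them. T cell markers summed to 11515 to 12257 CPM in control and 12417 to 13007 in CAL-101 T cells, and to 739 to 935 in NK cells. Pairs of libraries shared 8 to 31 cell barcodes, 249 in all, and in none of these did the 2 cells hold the same number of UMIs. Each mouse is 1 library, so p-values between the groups weigh their difference against the spread between these mice. The sample titles do not say whether each mouse received T cells from a separate culture. Spread between cultures may therefore not be covered.

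Across the deposited clusters, some members were highest in T cell clusters and others were high in NK cells. Of the rest, 1 was highest in neutrophils and 1 had little contrast. These levels are means of 6 mice in CPM over all cells of a cluster, except that clusters 12 and 13 were measured in 1 mouse each. They are given without a test, because the clusters were made from the same cells. Slamf1, encoding the self-binding receptor CD150, was high in T cell clusters and near 0 in the main NK clusters. It reached 130 ± 14.5 (SD, n = 6 here and for each cluster below) in cluster 1, followed by 96.0 in cluster 4, 69.4 in cluster 3, 65.2 in cluster 5 and 48.2 in cluster 2, against 3.04 in cluster 0 and 2.77 in cluster 7, the main NK clusters. Clusters 1 and 4 did not overlap each other or cluster 3, while clusters 3, 5 and 2 overlapped their neighbours. Slamf6 was highest in cluster 5 at 45.0 ± 14.2 and in cluster 1 at 40.7 ± 26.1, lower in clusters 4 (22.8), 2 (21.4) and 3 (14.7), and lowest in cluster 7 at 2.73 ± 1.80. Among the 12 clusters with all 6 mice its neighbours in this order all overlapped. Ly9, a self-binding receptor, was also highest in T cell clusters, with 34.6 ± 4.83 in cluster 4 and 32.5 ± 4.17 in cluster 5, against 13.1 ± 1.85 in cluster 7 and 10.9 ± 8.49 in cluster 10, the lowest of the 12 clusters with all 6 mice. Its contrast with the main NK cluster 0 was smaller, at 23.6 ± 4.57 there. The mice of cluster 0 (18.1 to 30.1) overlapped those of each T cell cluster.

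Cd244a, Slamf7 and Sh2d1a had the opposite order. Cd244a, the receptor for CD48, was highest in cluster 7 at 140.0 ± 14.2, then 99.8 ± 8.55 in cluster 0, and in the 5 T cell clusters it ranged from 9.22 ± 2.96 (cluster 5) to 21.6 ± 6.70 (cluster 3). Slamf7, a self-binding receptor of NK and myeloid cells, reached 168 ± 65.3 in cluster 11, labelled mostly monocytes and dendritic cells, 137 ± 8.94 in cluster 7 and 103 ± 11.01 in cluster 0. In T cell clusters it lay between 43.7 ± 9.30 (cluster 2) and 78.3 ± 19.1 (cluster 3). Sh2d1a, the SAP adaptor, was 155 ± 18.9 in cluster 0 and 114 ± 6.86 in cluster 7, with 89.3 ± 20.1 in cluster 5 as the highest T cell cluster. Cd84, a self-binding receptor of myeloid cells and lymphocytes, was highest in cluster 10, led by neutrophil genes, at 197 ± 58.8, and lowest among the 12 clusters with all 6 mice in cluster 6 at 16.6 ± 4.90. Cd48, the ligand, had the flattest profile, from 160.4 ± 22.0 in cluster 3 to 66.1 ± 37.7 in cluster 10, and each of its 13 pairs of neighbours in the order overlapped. Over the 14 clusters, log2 levels of Slamf1 and Slamf6 had a Pearson r of 0.86, Slamf6 and Ly9 0.87, Slamf7 and Cd244a 0.88, and Slamf1 and Cd244a -0.34. These values describe 14 clusters that share libraries and differ in depth, with medians from 865.5 UMIs per cell in cluster 6 to 25738 in cluster 2. The r values and the order of Cd48 include clusters 12 and 13, with 1 mouse each. Slamf6 was 0 in both, and Slamf1 and Ly9 were 0 in cluster 13, points that can weigh strongly on the log2 scale.

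**Figure D1:**
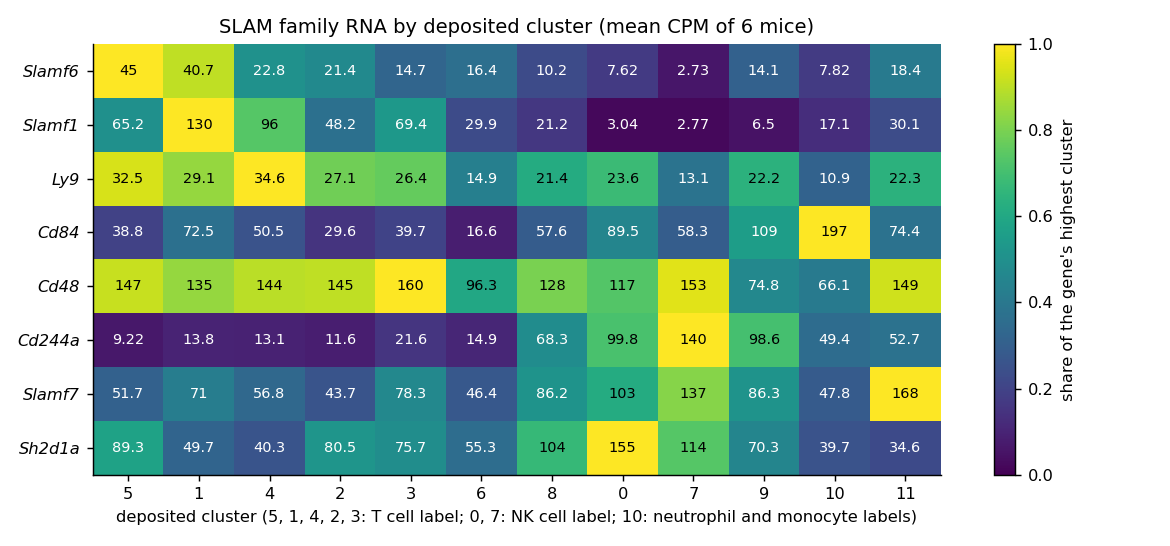
SLAM family RNA in the 12 deposited clusters with at least 20 cells in every mouse. Each field gives the mean CPM of 6 mice, and the colour is that mean as a share of the gene's highest cluster. Slamf6, Slamf1 and Ly9 are brightest in T cell clusters on the left, Cd244a and Sh2d1a in clusters 0 and 7, and Cd84 in cluster 10. Ly9 has less contrast between the T cell clusters and cluster 0 than Slamf1 and Slamf6.

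In transferred T cells, Slamf6 was 3.24-fold higher and Cd48 1.197-fold higher in CAL-101 mice, and no member was called lower. These were 2 of 8 members, beside 17.3% of the 16450 genes tested that were called in either direction and 8.41% that were called higher (edgeR quasi-likelihood test, Benjamini-Hochberg adjusted p under 0.05). The median log2 change of the 8 members was 0.06, beside -0.00134 over all genes tested. Slamf6 came to 11.4, 16.5 and 7.89 CPM in control mice 1, 2 and 3, and to 48.3, 32.0 and 39.2 in CAL-101 mice 1, 2 and 3. The lowest CAL-101 mouse was well above the highest control mouse, and the log2 difference was 1.70 ± 0.25 (SE, edgeR adjusted p = 0.00387). It kept its call in each of 16 alternative settings, with log2 values from 1.47 to 1.99. Cd48 came to 135, 133 and 132 CPM in control and to 166, 159.7 and 169 in CAL-101 mice. The groups did not overlap, and the 3 mice of each group were close together; the log2 difference was 0.26 ± 0.05 (SE, edgeR adjusted p = 0.0156). This smaller difference missed the threshold when control mouse 1 (adjusted p = 0.0613) or 3 (0.0775) or CAL-101 mouse 1 (0.0510) or 3 (0.0554) was left out.

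The other 6 members were not called in T cells. Ly9 measured 25.4, 26.0 and 27.4 CPM in control and 30.5, 28.8 and 30.8 in CAL-101 mice, again without overlap, with a log2 difference of 0.15 ± 0.06 (SE, edgeR adjusted p = 0.157). Slamf6, Cd48 and Ly9 were thus 3 of 8 members without overlap between the groups, where 37.9% of all genes tested had none. Cd244a, an inhibitory receptor in many settings, gave 20.3, 7.87 and 19.1 CPM in control and 8.53, 13.4 and 10.1 in CAL-101 T cells. Control mouse 2 was the lowest of all 6 and the groups overlapped; the log2 difference was -0.61 ± 0.31 (SE, edgeR adjusted p = 0.222). Without control mouse 2 it was -0.92 (adjusted p = 0.00436), and over all T-labelled cells it was -0.70 (adjusted p = 0.0145). The adaptor Sh2d1a gave 67.3, 68.6 and 71.0 CPM in control and 97.6, 64.2 and 90.5 in CAL-101 T cells. Here CAL-101 mouse 2 was the lowest of the 6, and the log2 difference was 0.24 ± 0.14 with all mice (SE, edgeR adjusted p = 0.28) and 0.41 without that mouse (adjusted p = 0.00904). Slamf1 (-0.12 ± 0.10), Cd84 (-0.04 ± 0.06) and Slamf7 (-0.03 ± 0.17) had log2 differences near 0 in overlapping groups, with edgeR adjusted p of 0.419, 0.742 and 0.922.

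Marker genes of other cell types were also summed in this class. NK cell markers (9 of 9 with UMIs, Klre1 the most abundant) summed to 104 to 137 CPM in control and 81.2 to 112 in CAL-101 T cells. Monocyte markers (8 of 8, with Ccr2 giving 90.9% of the sum) came to 52.7 to 91.2 and 34.2 to 50.4, and dendritic cell markers (5 of 6, Cd209a at 0, with Ccr7 giving 83.1%) to 258 to 620 and 147 to 218. The monocyte and dendritic cell sums, each mostly from 1 gene, did not overlap between the groups and the NK cell sums did. Over all mice, dendritic cell markers came to between 197 (cluster 5) and 374 CPM (cluster 1) in the T cell clusters, beside 423 in cluster 11. Cells with over 20% mitochondrial UMIs made up 6.78 to 10.9% of control and 10.9 to 15.4% of CAL-101 libraries. Whether these sums came from other cells or from the T cells themselves was not tested. The part of these markers in the differences of the SLAM genes was not tested either.

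**Figure D2:**
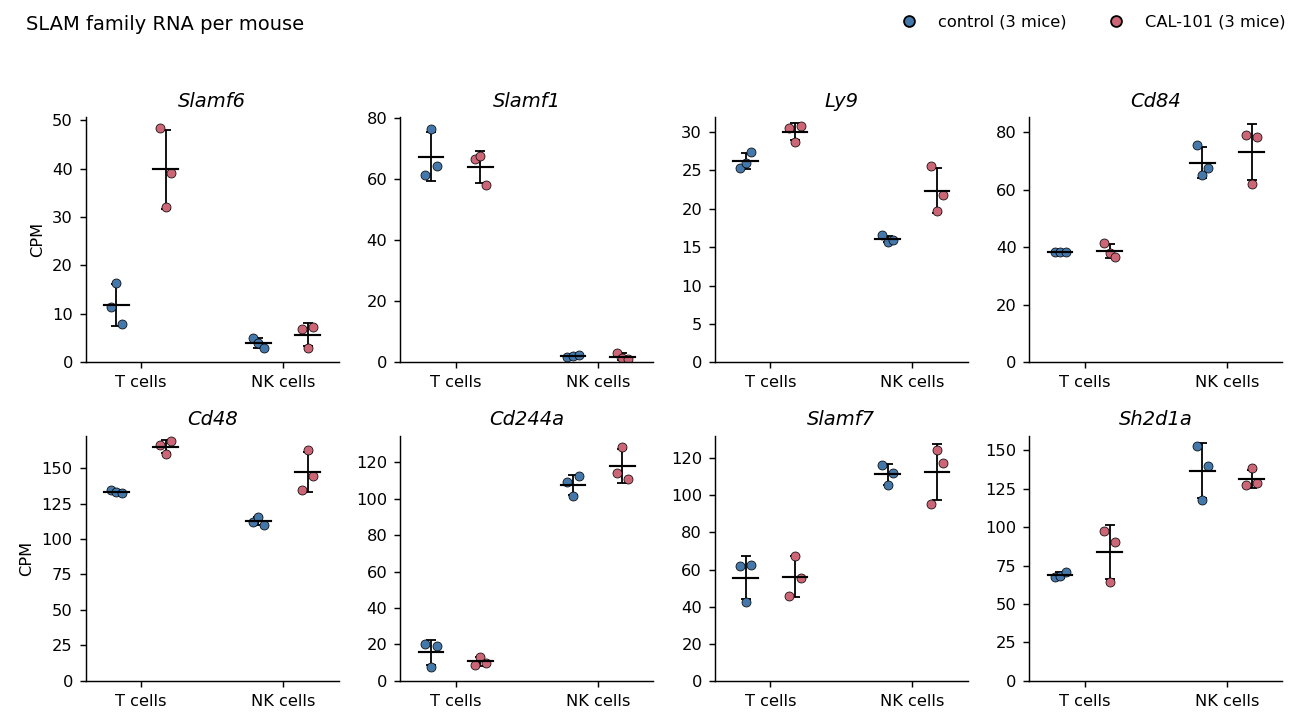
RNA of the 8 members in CPM, per mouse, in T cells and NK cells. Points are mice (control left and blue, CAL-101 right and red), horizontal lines are means of 3 mice and bars are 1 SD. In T cells the Slamf6 points of the 2 groups are far apart, those of Cd48 and Ly9 are separate, and those of the other members overlap.

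The mixture of T cell clusters differed between the groups, so the groups were also compared within each cluster. These fits took all cells of a cluster whatever their label. T labels made up 98.2% or more of clusters 1 to 5, but also 14.5% of cluster 0, 42.1% of cluster 8 and 37.5% of cluster 9. Cluster 5 held 2.72% ± 0.741 of control and 24.8% ± 1.60 of CAL-101 T cells, and cluster 3 held 32.2% ± 5.87 and 8.30% ± 3.19 (SD, n = 3 mice each). Slamf6 was called higher in CAL-101 mice in 4 of the 5 T cell clusters. In cluster 1 it gave 18.5, 24.0 and 13.7 CPM in control and 76.1, 46.3 and 65.7 in CAL-101 mice (log2 1.73 ± 0.22 SE, edgeR adjusted p = 0.000859, with 11.7% of genes called in that cluster). In cluster 2 the values were 8.96, 13.7 and 6.35 against 41.0, 26.9 and 31.7 (log2 1.73 ± 0.26 SE, edgeR adjusted p = 0.00519, 12.6% called). In cluster 4 they were 13.6, 15.6 and 7.50 against 35.8, 25.9 and 38.3 (log2 1.399 ± 0.23 SE, edgeR adjusted p = 0.00279, 8.28% called). No control mouse reached the lowest CAL-101 mouse in any of the 3 clusters. Cluster 5 had the highest control level of Slamf6 and a smaller difference: 38.0, 28.4 and 32.7 against 62.2, 48.7 and 59.9 (log2 0.71 ± 0.14 SE, edgeR adjusted p = 0.0148, 5.23% called). Without control mouse 2 or control mouse 3 the call in cluster 5 was lost (adjusted p = 0.0583 and 0.0575). In cluster 3 the groups overlapped, with 10.1, 17.4 and 6.55 against 23.6, 14.01 and 16.9 (log2 0.58 ± 0.34 SE, edgeR adjusted p = 0.356, 6.76% called; 0.97 and 0.0180 without control mouse 2). Whether the difference itself varied between clusters was not tested. When the 5 clusters were given equal weight in every mouse, Slamf6 measured 17.8, 19.9 and 13.4 CPM in control and 48.0, 32.4 and 42.6 in CAL-101 mice, a log2 ratio of means of 1.27 beside 1.74 with the actual mixture (exact permutation p = 0.1 for the equal weights, the smallest that 3 against 3 mice allow).

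Cd48 was called higher in clusters 2 (log2 0.29 ± 0.06 SE, edgeR adjusted p = 0.0166), 3 (0.29 ± 0.07, adjusted p = 0.0432) and 5 (0.43 ± 0.08, adjusted p = 0.0124), and also in NK cluster 0 (0.56 ± 0.08, adjusted p = 0.00214, with 5.53% of genes called there). In cluster 5 it gave 134, 117 and 117 CPM in control and 176, 166 and 172 in CAL-101 mice. In cluster 0 the values were 96.4, 89.4 and 92.6 against 125, 159.6 and 141, and the groups did not overlap in either cluster. The call in cluster 0 held in each of 13 alternatives, whereas those in clusters 2 and 3 were lost without control mouse 1 or 3 or without CAL-101 mouse 1 or 3 (adjusted p from 0.0576 to 0.174), that in cluster 3 also without CAL-101 mouse 2 (0.0836), and that in cluster 5 without control mouse 3 (0.0527). In clusters 1 (0.06 ± 0.10) and 4 (0.18 ± 0.09) Cd48 was not called (edgeR adjusted p = 0.763 and 0.255). With equal cluster weights its log2 ratio of means was 0.30, beside 0.31 with the actual mixture. For Cd244a the ratio was -0.19 with equal weights (exact permutation p = 0.7) and -0.56 with the actual mixture. Within clusters, Cd244a had log2 differences of -0.53 ± 0.28 in cluster 1 and -0.66 ± 0.32 in cluster 2 (SE). In clusters 4 and 5 they were -0.42 ± 0.26 and -0.50 ± 0.25. Only cluster 3 had the other sign, at 0.43 ± 0.28. Cd244a was called in none of these clusters (edgeR adjusted p from 0.219 in cluster 2 to 0.408 in cluster 3). Ly9 was called higher in cluster 0 (log2 0.47 ± 0.11 SE, edgeR adjusted p = 0.0252), but not when control mouse 1 (0.0725) or 3 (0.121) or CAL-101 mouse 1 (0.214) was left out. These 9 calls, all higher, were the only ones among 86 fits of a member in 1 of 12 clusters; no member was called in clusters 6 to 11, where 1.4, 1.32, 0.459, 0.628, 5.8 and 0% of genes were called.

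**Figure D3:**
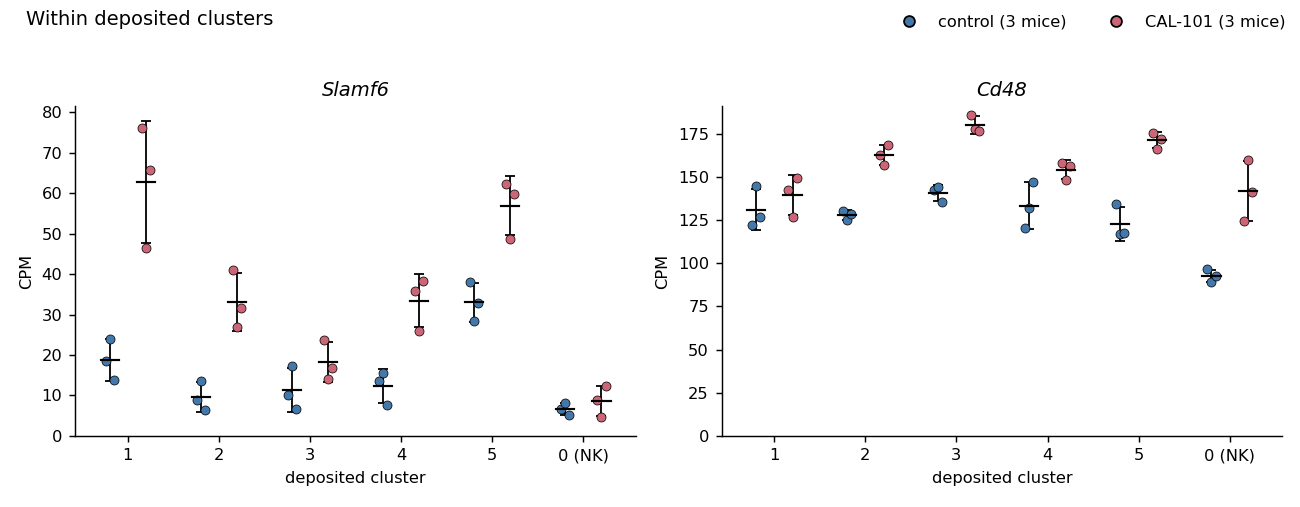
Slamf6 and Cd48 RNA within deposited clusters 1 to 5 (mostly T-labelled) and 0 (mostly NK-labelled), over all cells of each cluster, in CPM. Points are mice, horizontal lines means of 3 mice and bars 1 SD. Slamf6 is separate between the groups in clusters 1, 2, 4 and 5 and overlaps in cluster 3, and Cd48 is separate in clusters 2, 3, 4, 5 and 0, although it was not called in cluster 4.

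The share of T cells with at least 1 Slamf6 UMI was counted with every cell reduced at random to 1600 UMIs, which left out shallower cells and kept 95.9 to 98.3% of the T cells of a mouse. It was 1.99, 2.26 and 1.24% in control and 8.59, 5.37 and 7.11% in CAL-101 mice, without overlap. The exact permutation p was 0.1, the smallest possible, and 0.4 after adjustment over the 8 members. In neutrophils, 1 of 400 cells had a Slamf6 UMI (0.25%, exact 95% interval 0.00633 to 1.38%, covering counting error only). Unthinned, the shares were 10.4, 14.2 and 6.25% in control and 34.4, 24.2 and 28.6% in CAL-101 T cells, with a median of 10496 UMIs per T cell and 3175.5 per neutrophil. For Cd48 the thinned share was 17.8, 19.5 and 18.6% against 21.6, 20.8 and 22.8% (exact permutation p = 0.1, adjusted p = 0.4), and 2.75% in neutrophils. Cd244a was found in 3.29, 1.38 and 3.07% of control and 1.44, 2.32 and 1.52% of CAL-101 T cells, beside 9.5% of neutrophils and 15.3% of NK cells. Neutrophils carry RNA of Cd244a and Cd84 themselves (Cd84 was found in 33.8% of them and in 7.32% of T cells), so their shares give no background level for these 2 genes. Whether the neutrophil shares of Slamf6 and Cd48 are a background level or RNA of the neutrophils themselves was not tested.

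In host NK cells, Cd48 was 1.28-fold and Ly9 1.39-fold higher in CAL-101 mice, and the other 6 members were not called. These 2 of 8 members stand beside 4.3% of 13841 genes called in either direction and 2.57% called higher. Cd48 gave 112, 116 and 110.2 CPM in control and 135, 163 and 144 in CAL-101 NK cells (log2 0.35 ± 0.08 SE, edgeR adjusted p = 0.0435). Ly9 gave 16.5, 15.7 and 15.98 against 25.5, 19.8 and 21.8 (log2 0.47 ± 0.10 SE, edgeR adjusted p = 0.0336). Both were without overlap, as were 26.2% of all genes tested. The NK calls rested on the full set of mice: Cd48 missed the threshold without each mouse other than control mouse 2 (adjusted p from 0.0601 to 0.171), and Ly9 without control mouse 1 or 3 or CAL-101 mouse 1 or 3 (0.110 to 0.136). Without cluster 8 they gave 0.37 and 0.48 with adjusted p of 0.0707 and 0.0650. CAL-101 mouse 2 contributed 471 NK cells, the fewest, and control mouse 2 3379.

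Cd244a, the receptor for CD48, gave 109, 102 and 112 CPM in control and 114, 128 and 111 in CAL-101 NK cells (log2 0.10 ± 0.08 SE, edgeR adjusted p = 0.530). Slamf6 was low in NK cells, at 5.09, 4.09 and 2.89 against 6.86, 3.01 and 7.23 CPM, with a log2 difference of 0.55 ± 0.27 (SE, edgeR adjusted p = 0.277). Slamf7 (-0.02), Cd84 (0.06), Sh2d1a (-0.08) and Slamf1 (0.00328) had log2 differences near 0 and edgeR adjusted p of 0.67 or more. The log2 change of Slamf6 was larger in T than in NK cells by 1.34 ± 0.30 (SE), which did not pass adjustment (limma adjusted p = 0.103, unadjusted 0.00456). For Cd48 the T cell change minus the NK cell change was -0.09 ± 0.12 (SE, limma adjusted p = 0.752), and for Ly9 -0.29 ± 0.10 (adjusted p = 0.221). No member passed this test of the difference, which 1.57% of 13643 genes did.

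At the protein level, Ly108 was higher on CAL-101 T cells, CD150 was lower, and CD48 had a lower mean that was not called. Ly108 made up 0.0570, 0.0673 and 0.0487% of antibody tags in control and 0.146, 0.104 and 0.121% in CAL-101 T cells, without overlap, a log2 difference of 0.99 ± 0.17 (SE, edgeR adjusted p = 0.01). Without control mouse 1 or control mouse 3 the adjusted p was 0.0535 and 0.0529. The signal was small in absolute terms: the median T cell carried 1, 1 and 1 Ly108 tags in control and 3, 1 and 2 in CAL-101 mice. Over both groups together, the Ly108 sum was 1.17 times that of the highest of the 7 isotype control antibodies in T cells. In NK cells it was 0.373 times. These values leave out cells with over 20000 tags. Such cells were 0, 0 and 0 in control and 1, 7 and 6 in CAL-101 T cells, and the 7 cells of CAL-101 mouse 2 held 73.0% of its Ly108 tags; with them included, the log2 difference was 1.84.

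CD150 made up 1.24, 1.42 and 1.30% of tags in control and 1.17, 1.17 and 1.17% in CAL-101 T cells. The groups did not overlap and CD150 fell by 0.28 ± 0.07 on the log2 scale (SE, edgeR adjusted p = 0.0260), although the RNA of its gene Slamf1 was not called. The CD150 call was lost without control mouse 1 or 2 or any 1 CAL-101 mouse (adjusted p from 0.0714 to 0.136), with tags scaled to the isotype controls (0.0727) and with tag-rich cells included (0.0610). CD48 made up 3.10, 3.37 and 2.75% of tags in control and 2.71, 2.40 and 2.698% in CAL-101 T cells, a log2 difference of -0.35 ± 0.11 (SE, edgeR adjusted p = 0.0763; DESeq2 adjusted p = 0.0375). Its sign was opposite to that of Cd48 RNA in the same cells, and whether RNA and protein differed was not tested. Within clusters, CD150 shares were separate between the groups in clusters 1 and 4 and overlapped in clusters 2, 3 and 5. Mean CD150 shares in control and CAL-101 mice were 1.11 and 1.10% in cluster 5 and 1.43 and 1.41% in cluster 3. CD48 shares were separate in cluster 1 and overlapped in clusters 2 to 5. Tags were not tested within clusters. The 2 calls among 3 antibodies, 1 higher and 1 lower, stand beside 26.5% of 102 antibodies called in T cells, 10.8% higher and 15.7% lower, and 3 of 3 without overlap beside 47.1%. Tag shares are relative: the 102 antibodies sum to 100% in each mouse, and the control libraries held 16262345 to 18237209 tags against 12748632 to 13243299.

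In NK cells none of the 3 was called, where 0.98% of antibodies were, and all 3 overlapped, where 29.4% did not. Ly108 made up 0.0355, 0.0325 and 0.0334% of tags in control and 0.0397, 0.0330 and 0.0401% in CAL-101 NK cells (log2 0.02 ± 0.10 SE, edgeR adjusted p = 0.944). CD150 differed by -0.03 ± 0.09 and CD48 by -0.31 ± 0.16 on the log2 scale (SE, edgeR adjusted p = 0.868 and 0.382). Mean CD150 shares of 1.24% ± 0.102 in T and 0.439% ± 0.0454 in NK cells (SD, n = 6) had the same order as Slamf1 RNA. Within cluster 5, where mean Slamf6 RNA over the 6 mice was highest, Ly108 made up 0.0931, 0.117 and 0.0873% of control and 0.172, 0.125 and 0.147% of CAL-101 tags. In cluster 3 it made up 0.0502, 0.0616 and 0.0433% and 0.0855, 0.0718 and 0.0812%. Over both groups together, the Ly108 sum was 1.80 times that of the highest isotype control in cluster 5 and 0.75 times in cluster 3.

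**Figure D4:**
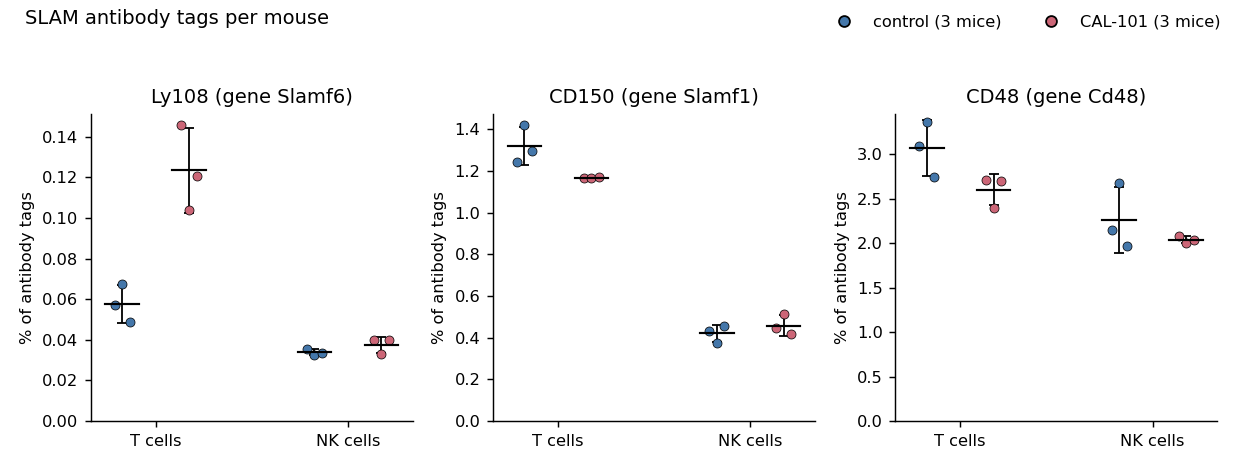
Tags of the 3 SLAM antibodies as a percentage of all antibody tags, per mouse, in T cells and NK cells with at most 20000 tags. Points are mice, horizontal lines means of 3 mice and bars 1 SD. In T cells the CAL-101 points are above the control points for Ly108 and below them for CD150 and CD48, and in NK cells they overlap.

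RNA and protein could also be compared in the same cell. T cells with a Slamf6 UMI after thinning carried more Ly108 tags than those without: the mean log2(tags + 1) was higher by 0.80, 0.42 and 0.69 in control and by 0.43, 0.45 and 0.46 in CAL-101 mice. The mean difference was 0.54 ± 0.16 (SD, n = 6 mice), higher in 6 of 6 mice (exact sign-flip permutation p = 0.0312, the smallest that 6 mice allow, adjusted p = 0.0312 over the 3 pairs). The summed tags of all other antibodies differed by -0.10 ± 0.11 between the same cells. CD150 was higher by 0.09 ± 0.03 in cells with a Slamf1 UMI and CD48 by 0.10 ± 0.05 in cells with a Cd48 UMI, each in 6 of 6 mice with the same exact p and adjusted p. Net of the summed tags of the other antibodies, the difference was 0.64 for Ly108, 0.18 for CD150 and 0.062 for CD48. In cells without a Slamf6 UMI, mean log2(Ly108 tags + 1) was 0.93, 1.15 and 0.77 in control and 1.81, 1.15 and 1.35 in CAL-101 mice, and no CAL-101 mouse was below the highest control mouse there.

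Slamf6 was counted beside Tcf7 and Havcr2, 1 gene of progenitor and 1 of terminally exhausted cells. Among thinned T cells with a Tcf7 UMI, 5.26, 4.17 and 2.02% had a Slamf6 UMI in control and 14.9, 10.6 and 14.2% in CAL-101 mice. Without a Tcf7 UMI the shares were 1.93, 2.19 and 1.22% and 7.49, 4.80 and 6.36%. The difference had the same sign in 6 of 6 mice, with a mean of 4.53 ± 2.93 percentage points (SD, exact sign-flip permutation p = 0.0312, adjusted p = 0.1 over 16 tests). Over the 6 mice, 1835 thinned cells had a Tcf7 UMI and 211 of these a Slamf6 UMI. The control shares beside Tcf7 rest on few cells, and so does the sign in control mouse 3 (2.02 against 1.22%). Cells with a Havcr2 UMI had fewer with Slamf6, at 1.51, 1.35 and 0.340% in control and 4.12, 3.42 and 3.803% in CAL-101 mice, against 2.07, 2.33 and 1.41% and 8.87, 5.58 and 7.43% without one (exact p = 0.0312, adjusted p = 0.1). In each of these 4 sets of cells every CAL-101 mouse was above every control mouse. For Cd244a the sign with Havcr2 was opposite to that of Slamf6, at 3.97% ± 1.24 with and 1.96% ± 0.751 without a Havcr2 UMI (SD, n = 6 mice, higher in 6 of 6, exact p = 0.0312, adjusted p = 0.1). All 16 adjusted values were 0.1 or more, so no split passed the threshold. With 6 mice the exact p cannot fall below 0.0312. After adjustment over 16 tests, a split could therefore pass only if most of the 16 were at that minimum. The adjusted values thus cannot decide about a single split.

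**Figure D5:**
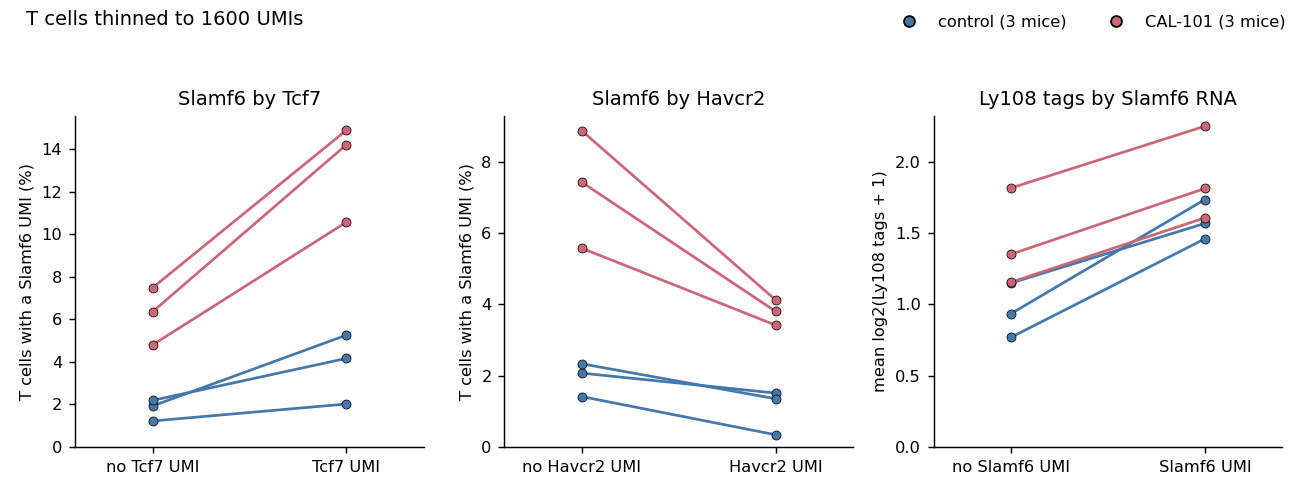
T cells thinned to 1600 UMIs, with 1 line per mouse (blue control, red CAL-101). Left and middle, percentage of cells with a Slamf6 UMI among those without and with a Tcf7 or Havcr2 UMI; right, mean log2(Ly108 tags + 1) in cells without and with a Slamf6 UMI. All 6 lines slope up in the left and right panels and down in the middle one.

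Of the 27 further genes of SLAM signalling, 24 were tested in T cells, and 3 were called higher and 5 lower, beside 17.3% of all genes called in T cells, with a median log2 difference of -0.01 beside -0.00134 over all genes. The 3 that rose were Ptpn6, encoding the phosphatase SHP-1 (log2 0.40 ± 0.07 SE, edgeR adjusted p = 0.00819), Csk, a kinase that restrains Src-family kinases (0.37 ± 0.07, adjusted p = 0.00878), and Lcp2, encoding the adaptor SLP-76 (0.29 ± 0.05, adjusted p = 0.00840). Ptpn6 gave 137, 133 and 119 CPM in control and 173, 173 and 184 in CAL-101 T cells. Plcg2, a phospholipase C, fell most clearly, from 12.3, 11.03 and 12.1 to 8.18, 8.45 and 7.87 CPM (log2 -0.58 ± 0.07 SE, edgeR adjusted p = 0.00210). Ptpn6, Csk and Plcg2 kept their calls in each of 16 alternatives, and Lcp2 in 15. Plcg1 (-0.33), the adaptor Dok2 (-0.40), the phosphatase SHP-2 gene Ptpn11 (-0.23) and Pik3c3 (-0.24), a lipid kinase that partners SLAMF1 in phagosomes, also fell (edgeR adjusted p = 0.0429, 0.0459, 0.0483 and 0.0284). Each of these 4 was lost without control mouse 1 or 3 or CAL-101 mouse 1 or 3 (adjusted p from 0.0509 to 0.174), and Dok2 and Ptpn11 also without CAL-101 mouse 2 (0.0940 and 0.110). Dok2 was lost without cluster 3 as well (adjusted p = 0.143), and Plcg1 and Ptpn11 over all T-labelled cells (0.115 and 0.0557). Fyn, the kinase recruited by SAP, was not called (0.15 ± 0.06, edgeR adjusted p = 0.103), and neither was Cd2, the other receptor for CD48 (0.09 ± 0.06, adjusted p = 0.291).

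In NK cells 25 of the 27 were tested and Ptpn6 alone was called, beside 4.3% of all genes. It gave 35.2, 47.6 and 35.0 CPM in control and 73.2, 70.8 and 58.8 in CAL-101 mice (log2 0.75 ± 0.13 SE, edgeR adjusted p = 0.0220), and was lost without control mouse 1 or 3 or CAL-101 mouse 1 or 3 (adjusted p from 0.0743 to 0.1004). Plcg2 had the opposite sign to that in T cells, at 0.33 ± 0.08, and was not called (edgeR adjusted p = 0.0526; 0.0227 with DESeq2, 0.0382 without control mouse 2 and 0.0349 without CAL-101 mouse 2). Lck (0.20 ± 0.09) and Dok1 (-0.28 ± 0.12) had adjusted p of 0.263 and 0.208. Sh2d1b1 and Sh2d1b2, the EAT-2 adaptors that serve SLAM receptors in NK cells, gave means of 57.0 and 16.4 CPM in control and 58.0 and 18.6 in CAL-101 NK cells, and neither was called. In T cells they came to 0.335 and 0.157 in control mice, and Slamf8 and Slamf9 were at or below 0.0787 CPM in every mouse of both classes.

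The genes whose level over the 14 clusters was most like that of a member, among 9470 genes with at least 20 CPM in 1 cluster are named here. The values are Pearson r of log2 levels and are given as a description, with clusters 12 and 13 measured in 1 mouse each. For Slamf1 they were Fam169b (0.98), Cd5 (0.98) and Cd6 (0.98), for Slamf6 Ubash3a (0.95), Tspan32 (0.95) and Il7r (0.95), and for Ly9 Nr4a2 (0.98), Adora2a (0.98) and Lrmp (0.98). Irf8 was nearest to both Slamf7 (0.95) and Cd244a (0.94), followed by Osgin2 and Gmppb for the first and F2rl2 and Klhl25 for the second. Cd84 was nearest to Pik3ap1 (0.98), Ccdc146 (0.98) and Sorl1 (0.97), all highest in cluster 10, and Sh2d1a to 4930486L24Rik (0.95), AW112010 (0.94) and Cst7 (0.94). For Cd48, with its flat profile, the nearest genes were Siah2, Pinx1 and Gpalpp1 at 0.89 each.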

How the data were processed

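Single-cell RNA and antibody tags of 6 tumours were measured on the Chromium 3' platform with feature barcoding, in 12 sample records, 1 RNA and 1 antibody record per mouse. The authors deposited UMI counts per cell, and the file headers name Cell Ranger 7.1.0; Seurat and mm10 are named in the submitters' processing notes. The authors also deposited cell tables with cluster numbers and cell type labels, which were used as given, per the file headers. The members and gene lists were chosen with earlier results of these data known. Raw counts were summed per mouse and cell class and tested between groups with edgeR 4.0.16 (TMM scaling, default low-count filter, quasi-likelihood test, no covariate) in R 4.3.3, with Benjamini-Hochberg adjustment over all genes, or over the 102 antibodies, at 0.05. Clusters 0 to 11 had at least 20 cells in every mouse and were fitted over all their cells, whatever the label. The T minus NK difference was fitted with limma 3.58.1 on log2 values with a prior count of 2. DESeq2 1.42.0 was an alternative. CPM levels are UMIs scaled to the class total of a mouse. Cells with over 20000 tags were left out of antibody values. Sign-flip tests used all 64 flips over 6 mice. The scripts were tested on simulated data. Scrublet marked 0 to 110 cells per library, so doublets were kept, and an alternative dropped the cells with the top scores (0.8% per 1000 cells). Replicates differed beyond counting noise (chi-square per degree of freedom 7.57 to 47.0). The genes named are the members, up to 8 genes of the SLAM signalling list with the smallest adjusted p in T cells and up to 4 in NK cells, Tcf7 and Havcr2, and for likeness the 3 genes with the highest r; Fyn, Cd2, Sh2d1b1, Sh2d1b2, Slamf8 and Slamf9 were added for their roles after their values were seen.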

Additional observations from a re-analysis of the deposited data

How the results depend on the processing

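Slamf6 RNA in T cells kept its call in each of 16 alternatives, and Cd48 in cluster 0 did in each of 13, while the other Cd48 calls and those of Ly9 and of both antibodies were lost without certain single mice. A replicate block lowered the count of called genes in T cells from 2850 to 1381, and ended these calls: Cd48 (adjusted p = 0.0865), Lcp2 (0.0590), Pik3c3 (0.126), Plcg1 (0.129), Dok2 (0.106), Ptpn11 (0.148) and the CD150 antibody (0.0850) in T cells, Cd48 in clusters 2 (0.0957) and 3 (0.155), and Ly9 in NK cells (0.0605) and in cluster 0 (0.0557). Same-numbered mice of the groups had correlations of -0.23, -0.24 and 0.02, against -0.17 to 0.29 for other pairs, so the numbers were not taken as pairs. With the block, counts in clusters 0 to 4 were 366, 799, 553, 295 and 545, in clusters 7 to 11 45, 10, 69, 94 and 6, for T cell antibodies 16 and for the T minus NK difference 2; that last fit and its leave-one-out fits (0 to 128) were chosen after seeing the data. Without a filter on low counts, 1255 genes were called in NK cells (595 with it), and 1231, 2052, 1453, 1461 and 1188 in clusters 0, 1, 3, 4 and 5, and 804, 507, 104, 572 and 146 in clusters 7 to 11. DESeq2 called 29, 264, 110 and 17 genes in clusters 6, 7, 8 and 11 and 7 antibodies in NK cells; a CLR fit called 2. In cluster 11, edgeR called 0, with 446 at an unadjusted p under 0.05. A minimum of 30 UMIs gave 34 in cluster 6, leaving out high-mitochondrial cells 5 there, leaving out high doublet scores 10, 24 and 3 in clusters 8 to 10, and leaving out cluster 8 213 in NK cells. T cell antibody calls numbered 17 with all cells and 15 with isotype scaling. Leaving out 1 mouse gave 1288 to 3782 genes in T cells, 2 to 1584 in NK cells, and in clusters 0 to 11 178 to 726, 622 to 1719, 623 to 2667, 171 to 1359, 477 to 1168, 321 to 474, 26 to 55, 1 to 417, 9 to 733, 10 to 63, 17 to 428 and 0 to 2; it gave 8 to 21 and 1 to 2 antibodies in T and NK cells. Signs turned for uncalled values near 0. Without cluster 3, Slamf7 was 0.12 and Cd84 0.023 in T cells. In NK cells Slamf1 was -0.067 with DESeq2, -0.000369 with upper-quartile scaling, -0.011 without a filter, -0.10 with the block and -0.083 without cluster 8, where Slamf7 was 0.022; Ly108 was -0.00872 with isotype scaling and CD150 0.043 over all NK-labelled cells. With 1 mouse left out, Slamf7 ranged from -0.19 to 0.10 in T cells and from -0.11 to 0.11 in NK cells, Slamf1 in NK cells from -0.71 to 0.24, Ly108 from -0.021 to 0.10 and CD150 from -0.10 to 0.038 there. The T minus NK difference ranged from -0.061 to 0.50 for Slamf1, -0.14 to 0.082 for Slamf7, -0.17 to 0.032 for Cd48 and -0.15 to 0.00270 for Cd84, and the share of T cells from -0.94 to 0.444 points for Slamf1 and -0.932 to 1.196 for Slamf7. Unthinned, where deeper cells hold more UMIs of every gene, the difference of Slamf6 with Tcf7 was 23.9 points (adjusted p = 0.0333). With Havcr2 it was -3.17 points and no longer of 1 sign, as 1 of 6 mice had more Slamf6 beside Havcr2 (exact sign-flip permutation p = 0.0938). Signs turned for Slamf7 (2.72), Cd48 (10.8) and Sh2d1a (12.6) with Tcf7 and for Cd84 (10.3) and Sh2d1a (21.8) with Havcr2. The cause of the other changes was not tested. With 3 mice a group, low levels such as Slamf6 in NK cells leave wide errors.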
